A study of Mus musculus with 4 samples.

Results

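Nuclear-encoded genes of mitochondrial energy production were followed in NIT-1 cells, a mouse pancreatic β cell line, after transfection of the oestrogen-related receptor ERRγ. The members were chosen by symbol, as every listed row whose Ensembl gene ID belongs to Ndufs6, Ndufa6, Atp5h (also named Atp5pd), Idh3b or Hadhb. These are 5 of the 373 genes in the tables, and they hold 6 of the 406 named rows. Each row proved to be 1 transcript, so the rows are written with transcript names, as in Ndufs6-201. The tables list a part of each library by a rule that is not stated, and most of their rows separate the groups, so the presence of a row in them is not evidence of a change.

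The study had 2 libraries in each of 2 groups. Control cells received the plasmid pRP[Exp]-CMVE>EGFP and ERRγ cells received pRP[Exp]-EGFP >ERR[gamma], in both cases 8.3 µg with 16 µL of a liposomal reagent, and all cells were of the strain NOD/Lt and between passages 20 and 25. The line is a single model that grows because of a viral T antigen expressed from an insulin promoter, and both groups carry it. Untransfected cells were not analysed here, so each difference is between the ERRγ plasmid and the control plasmid. Both plasmid names hold EGFP. The labels speak of biological replicates but do not say whether these were separate cultures, so the p-values measure the spread between these libraries.

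ERRγ is an orphan nuclear receptor that works with coactivators of the PGC family and is known for switching on nuclear genes of the respiratory chain, the tricarboxylic acid cycle and fatty acid oxidation. In β cells, mitochondrial ATP closes potassium channels and thereby couples glucose to insulin release. Complex I takes electrons from NADH into the chain, ATP synthase uses the resulting proton gradient, isocitrate dehydrogenase supplies NADH from the cycle, and the trifunctional protein shortens fatty acids.

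The transcript behind each row was found from its length, which is total reads divided by RPKM (reads scaled to transcript length and library size) and by the size of the library. Ndufs6-201 is the only row that is the main coding transcript of its gene, here the transcript of lowest number among those that GENCODE M21 marks as consensus coding and principal. It has 568 nucleotides and 348 coding ones on chromosome 13 from 73319874 to 73328542, minus strand, GRCm38. Its length alone decided the match, and its reads were sparse, with none in control replicate 1 and 32 in control replicate 2. Hadhb-202, with 2045 nucleotides, and Hadhb-203, with 2048, are full-length coding transcripts on chromosome 5 from 30155272 to 30184582 and to 30184589, plus strand. They hold the same 1425 coding nucleotides as the main transcript Hadhb-201 (2033 nucleotides), which was not analysed here.

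The other rows are too short to be the main coding transcript. Atp5h-207 has 420 nucleotides against 625 in Atp5h-201, is annotated as a processed transcript without a coding part (chromosome 11, 115415689 to 115417018, minus strand) and lacks 3 of the 6 exons of Atp5h-201. Ndufa6-203 has 432 nucleotides against 590 in Ndufa6-201 and is annotated as a retained intron without a coding part (chromosome 15, 82350170 to 82352446, minus strand). Idh3b-204 has 452 nucleotides against 1616 in Idh3b-201, covers the 3′ end of the gene (chromosome 2, 130279313 to 130280551, minus strand) and is annotated as subject to nonsense-mediated decay, with 240 of 1152 coding nucleotides. For Atp5h, Ndufa6 and Idh3b the values below therefore belong to another transcript than the main coding one, which was not analysed here. What share of the gene's RNA these short transcripts make up was not measured.

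**Figure D1:**
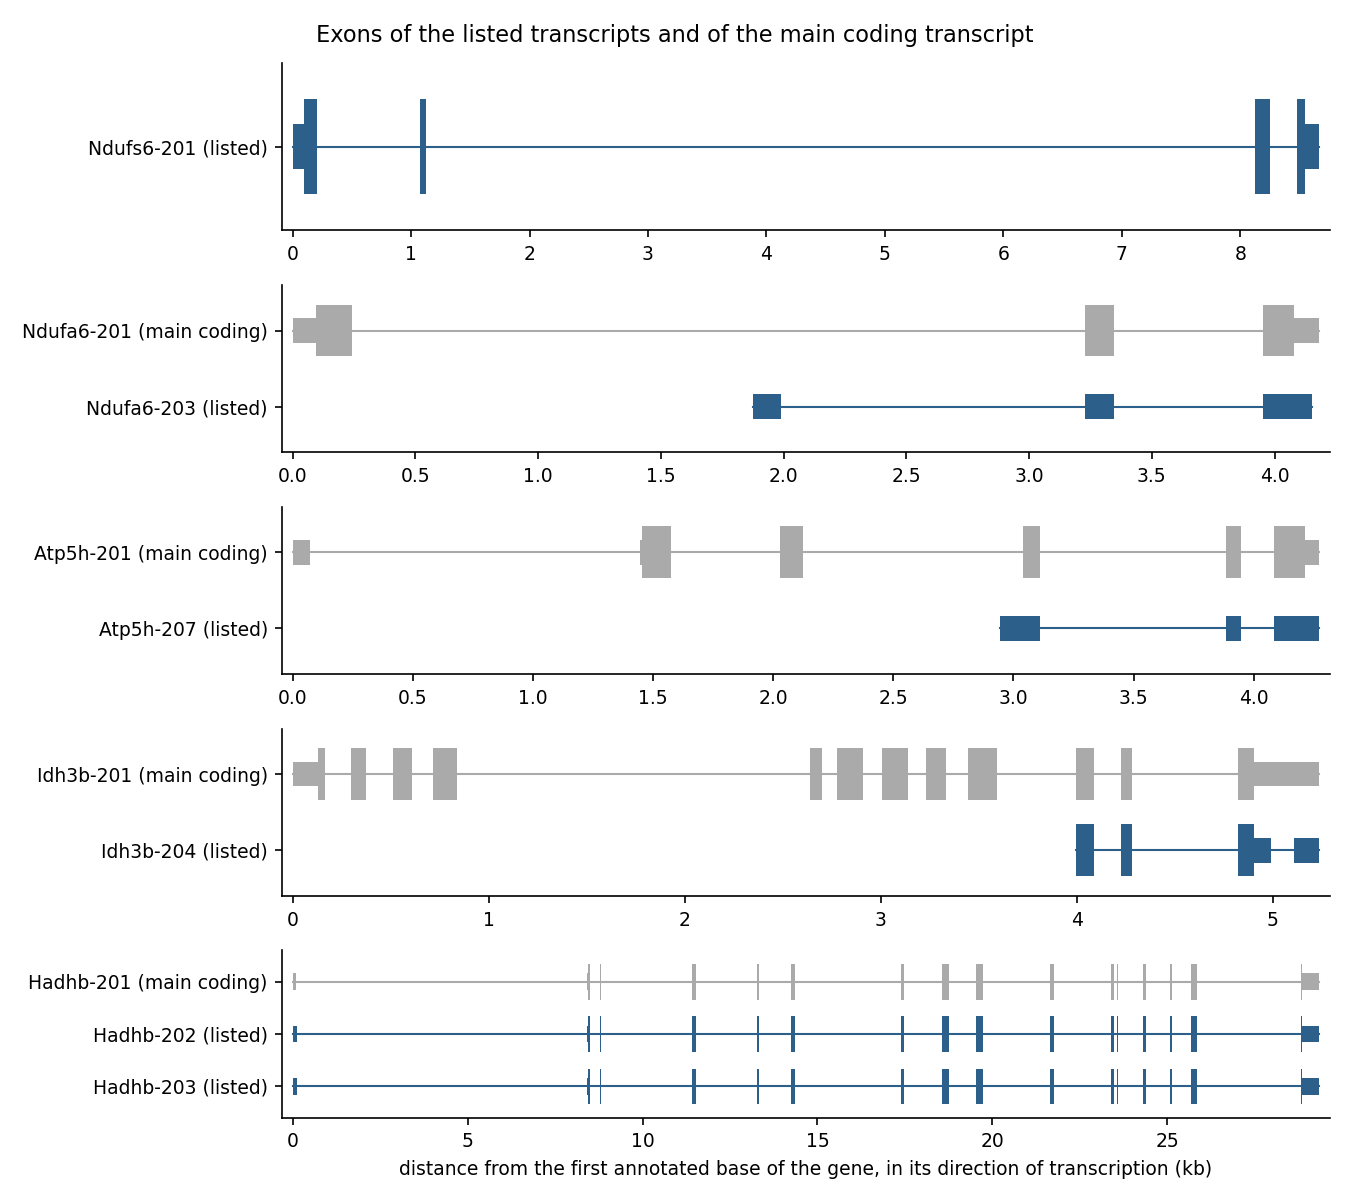
Exons of the listed transcripts (blue) and, where it is another one, of the main coding transcript (grey), with tall boxes for coding parts, against the distance in kb from the first annotated base of the gene. Atp5h-207, Ndufa6-203 and Idh3b-204 cover the 3′ part of their gene, while both Hadhb rows run over all 16 exons.

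Short stretches of sequence set these transcripts apart, and they are shown because the values turn on which transcript a read was given to. Each stretch has 30 bases of the GENCODE M21 transcript, 5′ to 3′. The lower-case part ends at the boundary and the capitals are what follows it. The 3 Hadhb transcripts join a different end of exon 1 to the same exon 2, at position 30155339, 30155386 or 30155382 of chromosome 5, and the bases shared after the junction hold the start codon.
Hadhb-201: ttcgcggactctaagATTTCAGAATGACTA
Hadhb-202: tttccccacaggcagATTTCAGAATGACTA
Hadhb-203: ctgatttccccacagATTTCAGAATGACTA
The Hadhb-202 and Hadhb-203 stretches are each found in 1 annotated transcript. Between these transcripts 2041 bases are shared. Only 4 bases belong to Hadhb-202 alone (30155383 to 30155386) and 7 to Hadhb-203 alone (30184583 to 30184589, the 3′ end).

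For the 3 short rows the stretches lie where the row departs from the main coding transcript. Atp5h-207 begins inside an intron and runs into an exon of Atp5h-201 at position 115416924, where Atp5h-201 joins the preceding exon.
Atp5h-207: tgtccttgtttatagTATAATGCCCTGAAG
Atp5h-201: gattttgaaaagaagTATAATGCCCTGAAG
Ndufa6-203 begins with an exon that Ndufa6-201 lacks and joins it to the shared exon that begins, in the direction of transcription, at position 82351094.
Ndufa6-203: tggccagtgcacaagTGCACTTAATGCAGC
Ndufa6-201: aggtgccgaacaccgTGCACTTAATGCAGC
Idh3b-204 splices out a piece of the last exon after position 130279556, where Idh3b-201 reads on.
Idh3b-204: gagaacatctagacaGTTCGAACCTCAGAT
Idh3b-201: gagaacatctagacaGTAGACTATAATAGC
The Atp5h-207 and Idh3b-204 stretches are found in no other annotated transcript, and that of Ndufa6-203 also in Ndufa6-204.

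Libraries had between 16605943 and 18769899 reads, as recovered from the tables, and the listed rows held between 6.26% and 7.62% of them. The transfected gene separated the groups, with Esrrg-201 reaching 141 and 78.6 RPKM in ERRγ replicates 1 and 2 against 0.232 and 0 RPKM in control replicates 1 and 2. Its other row, Esrrg-203, had 8.42 and 40.7 RPKM in ERRγ replicates 1 and 2 against 0 and 0.355 RPKM in control replicates 1 and 2. Reads of the plasmid and of the chromosomal gene were not told apart. None of the 17 β cell markers was among the rows analysed here, and of the endocrine markers only Rab3a was, so the labelled cell type could not be checked. In RNA from whole cultures, fewer cells that express a gene and less RNA per cell cannot be told apart.

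The rows of Ndufs6, Ndufa6, Atp5h, Idh3b and Hadhb-202, stood higher in both ERRγ libraries than in both controls, and Hadhb-203 stood lower. Over all 406 named rows, 41.9% lay above both controls and 45.6% below, so a separation of the groups is usual in these tables. None of the 6 rows passed edgeR's quasi-likelihood test at an adjusted p under 0.05, whereas 6.67% of the 375 rows tested did. The unadjusted p was under 0.05 for 3 of the 6 rows, near the 41.1% of all rows tested. All 6 rows passed the filter on low counts, Hadhb-203 with both libraries of each group over its minimum. The other 5 rows had both ERRγ libraries over the minimum. Of their controls, 1 was over it for Ndufa6-203 and Ndufs6-201, and 0 for Atp5h-207, Idh3b-204 and Hadhb-202.

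Ndufs6 encodes an accessory subunit of complex I that binds zinc in the matrix arm. In control cells Ndufs6-201 had no read in replicate 1 and 32 reads in replicate 2, a level of 0 and 3.33 RPKM. ERRγ cells had 119 and 88 reads of it, a level of 12.6 and 8.87 RPKM. Both ERRγ libraries were higher than both controls, and the controls differed from each other. The 95% counting interval of control replicate 2 (2.28 to 4.71 RPKM, exact Poisson) did not reach the limit of 0.281 RPKM that 3 reads give in control replicate 1. Such intervals and limits cover counting error only, since reads without molecular identifiers are not independent molecules. The group means were 1.67 ± 2.36 and 10.7 ± 2.65 RPKM (SD, n = 2), and the log2 fold change of ERRγ over control was 2.68 ± 2.14 (SE, edgeR, adjusted p = 0.303). Which control is kept decides this value, with 1.68 without control replicate 1 and 9.75 without control replicate 2, where the lone control had no reads (edgeR, adjusted p = 0.223 and 0.0615).

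Ndufs6-201 was the member row with the highest ERRγ level. It ranked 239th of 406 rows by mean RPKM. Of its 239 reads, the tables count 10 as unique (how they define this is not given in their headers), 4 and 6 in the ERRγ libraries and 0 in both controls. A further gene, Ndufs6b, holds 144 of the 538 windows of 31 bases in this transcript, so reads there could be given to either gene.

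Ndufa6 encodes another accessory subunit of complex I, which binds the mitochondrial acyl carrier protein. In control cells Ndufa6-203 had 6 and 11 reads, a level of 0.740 and 1.51 RPKM, while ERRγ cells had 37 and 44 reads, a level of 5.16 and 5.83 RPKM. Both ERRγ libraries lay above both controls, and their replicates were close to each other. The means were 1.12 ± 0.542 and 5.49 ± 0.476 RPKM (SD, n = 2), a ratio of 4.89, with a log2 fold change of 2.28 ± 1.02 (SE, edgeR, adjusted p = 0.152). None of its 98 reads was counted as unique, and 10 of its 282 windows of 151 bases, the length of a read, are found in no other annotated transcript. Taken without the other read of its pair, a read from the other windows of Ndufa6-203 cannot be told apart by sequence from a read of another transcript.

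Atp5h encodes subunit d of ATP synthase, part of the stalk that holds the catalytic head still. In control cells Atp5h-207 had 2 reads and none, a level of 0.254 and 0 RPKM, while ERRγ cells had 17 and 27 reads, a level of 2.44 and 3.68 RPKM. Both ERRγ libraries were above the upper end of the counting interval of either control (0.916 and 0.520 RPKM). Reads per library size were 23.0 times higher with ERRγ, with a 95% counting interval from 6.01 to 196. The log2 fold change was 4.39 ± 1.53 (SE, edgeR, adjusted p = 0.105), with 3.51 without control replicate 2 and 7.46 without control replicate 1, where the lone control had no reads (edgeR, adjusted p = 0.208 and 0.179).

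Atp5h-207 had the largest share of unique reads among the member rows. These were 1 and 0 reads in the controls and 3 and 7 reads in the ERRγ libraries, 11 of 46 reads or 23.9%. By sequence, 92 of its 270 windows of 151 bases are found in no other transcript, and all of them begin in the stretch that reaches into the intron. The tables do not record where in the transcript a read fell, and unspliced Atp5h RNA holds that stretch as well. Copies of the shared part occur in 5 predicted genes (Gm10250 among them), which hold 176 of its 390 windows of 31 bases.

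Idh3b encodes the β subunit of the NAD-dependent isocitrate dehydrogenase of the tricarboxylic acid cycle. Neither control had a read of Idh3b-204, while ERRγ cells had 12 and 41 reads, a level of 1.60 and 5.19 RPKM. The groups did not overlap, and 3 reads would have given 0.354 and 0.393 RPKM in the controls. With the reads of both ERRγ libraries added, the row lay 18.5-fold above a limit of 3 reads over both controls. This lower bound leaves out the spread of the ERRγ libraries. That bound was 8.59-fold with ERRγ replicate 1 alone and 27.9-fold with ERRγ replicate 2 alone, and without ERRγ replicate 2 the row was not tested. The ERRγ libraries differed from each other by more than their counting intervals, which ended at 2.79 RPKM and began at 3.73 RPKM. Its unadjusted p was 0.0151 and its adjusted p 0.0580 (edgeR), the smallest among the member rows. Of its 53 reads 3 were unique, 1 and 2 in the ERRγ libraries.

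**Figure D2:**
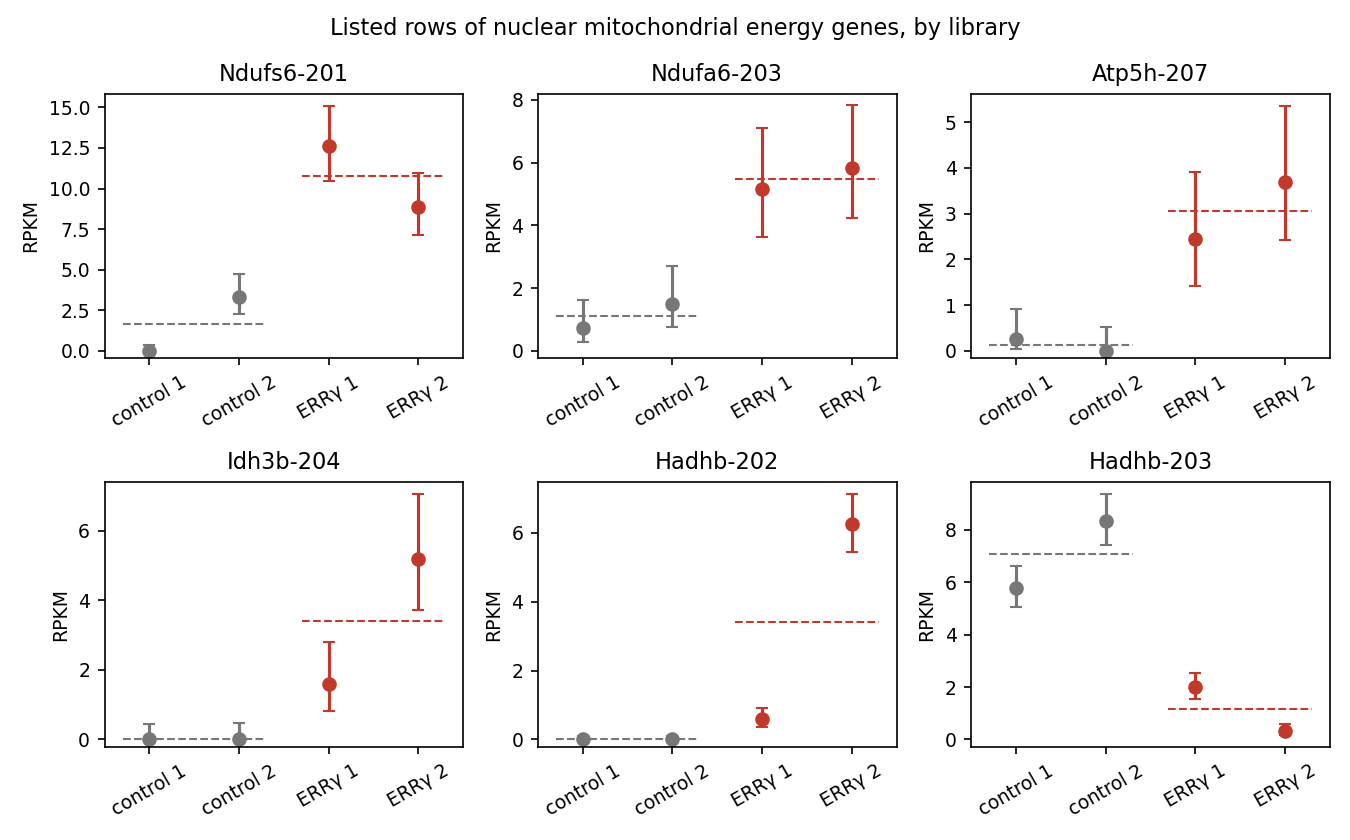
RPKM of the 6 listed rows in each library (controls grey, ERRγ red), with 95% exact Poisson intervals as bars and group means as dashed lines. Ndufs6-201, Ndufa6-203, Atp5h-207, Idh3b-204 and Hadhb-202 lie higher in both ERRγ libraries and Hadhb-203 lies lower, and the Hadhb-202 values of the ERRγ libraries, 0.589 and 6.24 RPKM, are far apart.

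Hadhb encodes the β subunit of the trifunctional protein, which carries its thiolase, the last step in the oxidation of long-chain fatty acids. Its rows went opposite ways. Hadhb-202 had no read in either control and 20 and 223 reads in the ERRγ libraries, 0.589 and 6.24 RPKM. Hadhb-203 had 223 and 289 reads in the controls, 5.80 and 8.35 RPKM, and 68 and 12 reads in the ERRγ libraries, 2.00 and 0.335 RPKM. In each row the groups did not overlap. With the reads of both ERRγ libraries added, Hadhb-202 lay 84.8-fold above a limit of 3 reads over both controls (edgeR, adjusted p = 0.0701). This lower bound leaves out the spread of the ERRγ libraries. ERRγ replicate 2 carried this bound, which was 14.3-fold with ERRγ replicate 1 alone and 152-fold with ERRγ replicate 2 alone. Hadhb-203 had a log2 fold change of −2.60 ± 1.20 (SE, edgeR, adjusted p = 0.159), which was −4.38 without ERRγ replicate 1 and −1.82 without ERRγ replicate 2 (edgeR, adjusted p = 0.212 and 0.479).

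Added together, the Hadhb rows gave 223, 289, 88 and 235 reads in control replicates 1 and 2 and ERRγ replicates 1 and 2, or 5.80, 8.35, 2.59 and 6.58 RPKM. The groups then overlapped, since ERRγ replicate 2 lay between the controls. The log2 fold change of the gene was −0.63 ± 0.79 (SE, edgeR, adjusted p = 0.479), with −0.11 without ERRγ replicate 1 and −1.45 without ERRγ replicate 2 (edgeR, adjusted p = 0.923 and 0.490). For the other 4 genes the sum is the single row. None of the 5 genes passed with rows added, where 10.4% of 347 genes did.

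The division of the Hadhb reads between the rows also differed between libraries. Hadhb-202 took 0 of 223 and 0 of 289 reads in the controls, where 3 reads, the limit that a count of 0 allows, would be 1.35% and 1.04%. The upper ends of the 95% exact binomial intervals were 1.64% and 1.27%. In ERRγ replicate 1 it took 22.7% (95% exact binomial interval 14.5% to 32.9%) and in ERRγ replicate 2 94.9% (91.3% to 97.3%). The ERRγ libraries thus differed more from each other, by 72.2 percentage points, than the group means did, by 58.8 points. By sequence, 112 of 1895 windows of 151 bases are found in Hadhb-202 alone and 108 of 1898 in Hadhb-203 alone, all of them over the exon junction printed above. Unique reads numbered 2 and 3 on Hadhb-203 in the controls, 0 on either row in ERRγ replicate 1 and 1 on Hadhb-202 in ERRγ replicate 2. The genes Gm13910 and Gm9108 together hold 1323 of the 2015 windows of 31 bases in Hadhb-202. How the reads shared by the rows were assigned is not given in the sources used here, and its part in the opposite values was not tested.

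**Figure D3:**
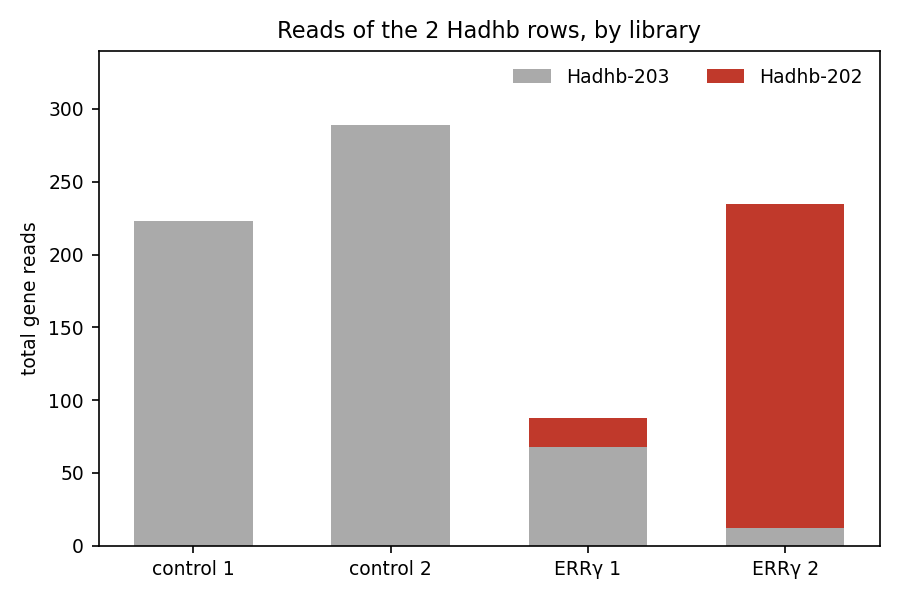
Total gene reads of Hadhb-203 (grey) and Hadhb-202 (red), stacked, in each library. The share of Hadhb-202 is 0 in both controls, 22.7% in ERRγ replicate 1 and 94.9% in ERRγ replicate 2, while the stacked totals of control replicate 1 (223) and ERRγ replicate 2 (235) are close.

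Unique reads were scarce on all member rows. They made up 0% of the reads of Ndufa6-203, 0.412% of Hadhb-202, 0.845% of Hadhb-203, 4.18% of Ndufs6-201, 5.66% of Idh3b-204 and 23.9% of Atp5h-207. In every one of these rows that share was below the share of its 151-base windows that no other transcript holds. The gap was widest for Idh3b-204, with 40.7% of windows against 5.66% of reads, and 3.55%, 5.91%, 5.69%, 19.1% and 34.1% of windows were found for Ndufa6-203, Hadhb-202, Hadhb-203, Ndufs6-201 and Atp5h-207. Such windows stand for single reads, and what the other read of a pair could add was not counted. No member row had enough unique reads to enter the test on them. Without that filter, a choice made after seeing the data, Ndufs6-201 had a log2 fold change in unique reads of 5.39 (edgeR, adjusted p = 0.0676) and Atp5h-207 one of 3.09 (edgeR, adjusted p = 0.107), the former against controls without a unique read. The values were 3.73 for Idh3b-204, 2.35 for Hadhb-202 and −4.36 for Hadhb-203 (edgeR, adjusted p = 0.234, 0.474 and 0.145). Idh3b-204 and Hadhb-202 likewise had no unique read in the controls, and the Hadhb-202 value rests on 1 read in ERRγ replicate 2. Hadhb-203 had no unique read in the ERRγ libraries.

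**Figure D4:**
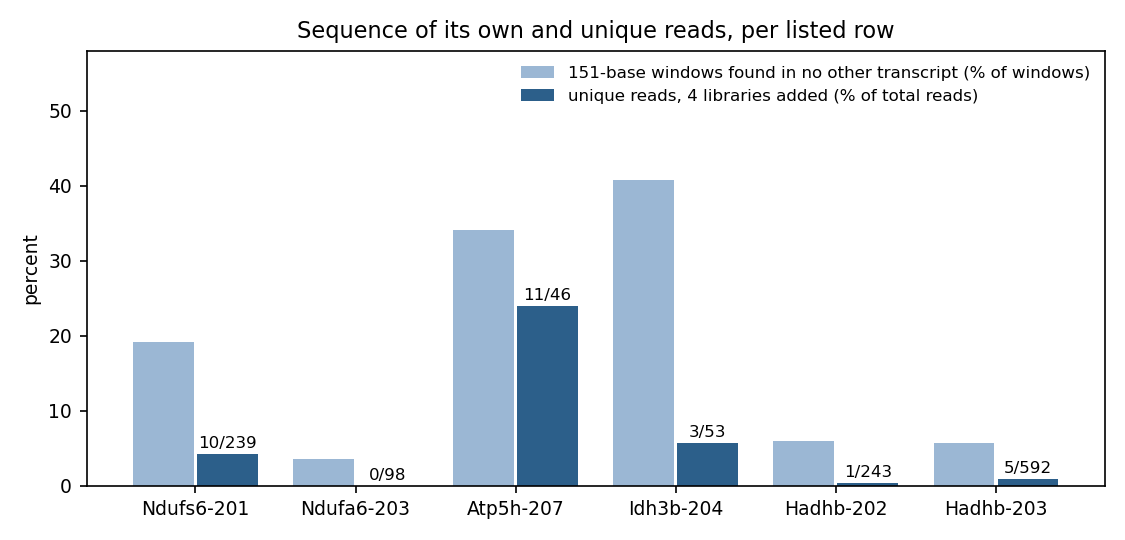
For each listed row, the percent of its 151-base windows found in no other annotated transcript (light) and the percent of its reads over all 4 libraries that were unique (dark), with unique and total reads above the bars. The dark bar is lower than the light bar in each of the 6 rows, and highest for Atp5h-207 at 11 of 46 reads.

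The tool mattered more for these rows than the scaling. The DESeq2 Wald test with the same library sizes called 4 of the 6 rows, Atp5h-207 (adjusted p = 0.00740), Idh3b-204 (0.00126) and Hadhb-202 (0.000294) higher and Hadhb-203 (0.0282) lower. It called 64.3% of all rows tested, so 4 of 6 is near the share of all rows. Ndufa6-203 and Ndufs6-201 were not called by it (DESeq2, adjusted p = 0.0604 and 0.211). No alternative to the test changed the sign of a member row's log2 fold change. Scaling by TMM moved the median over all rows from −0.27 to −0.10, far less than the log2 fold changes of the members.

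**Figure D5:**
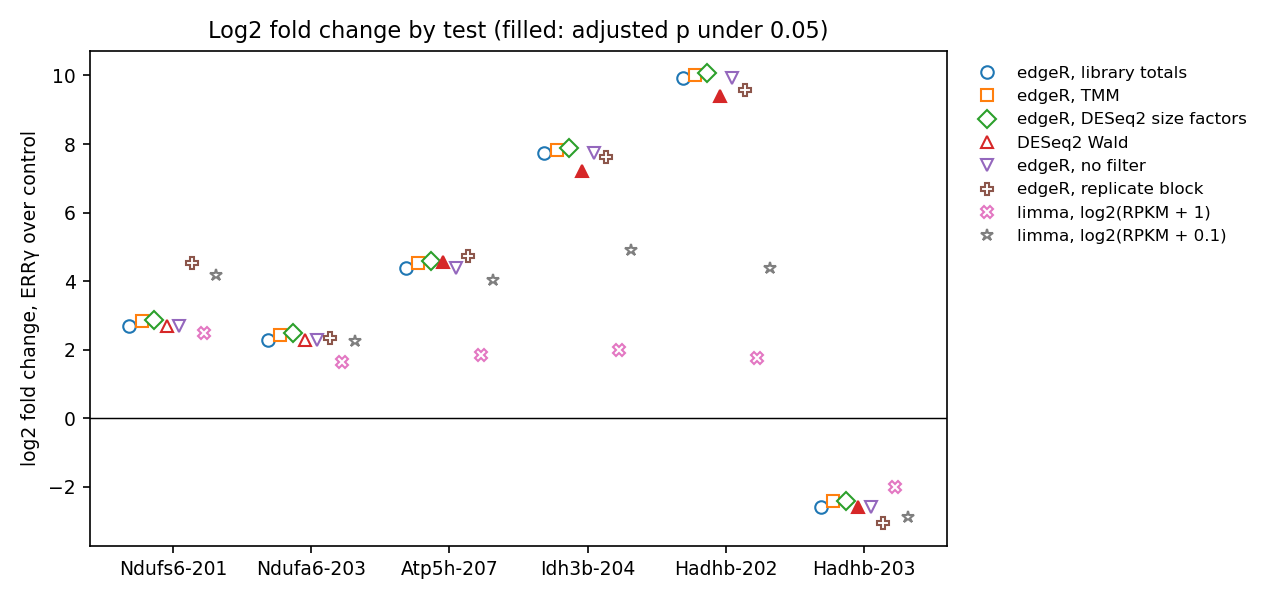
Log2 fold change of ERRγ over control for the 6 rows under 8 tests or scalings, filled where the adjusted p is under 0.05. Filled symbols are those of the DESeq2 Wald test on Atp5h-207, Idh3b-204, Hadhb-202 and Hadhb-203, and the limma values of Idh3b-204 and Hadhb-202 on log2(RPKM + 1), 2.00 and 1.76, are below those on log2(RPKM + 0.1), 4.91 and 4.39.

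The 5 genes stand for few of their pathways. On 7 lists of nuclear energy genes (complexes I to IV with cytochrome c, ATP synthase, the tricarboxylic acid cycle with pyruvate dehydrogenase, and fatty acid oxidation) 6 of 134 genes had a row, and the other 128 were not analysed here. Of 38 complex I genes 2 were listed, of 18 ATP synthase genes 2, of 26 genes of the cycle 1 and of 24 fatty acid oxidation genes 1, and none for complexes II, III and IV. The only such row outside the members was Atp5b-206, a processed transcript of 478 nucleotides from the gene for the catalytic β subunit of ATP synthase. Its controls were far apart, at 0.780 and 74.4 RPKM, and the ERRγ libraries, at 19.0 and 3.11 RPKM, lay between them (edgeR, adjusted p = 0.441). Of the 7 rows 0 were called higher and 0 lower, and their median log2 fold change was 2.68 beside −0.27 over all rows tested. That median is the value of Ndufs6-201, which depends on the control kept. It is a description only, as a row needed enough reads in 2 libraries, of whichever group, to be tested. Atp5h-207, Idh3b-204 and Hadhb-202 reached the filter's minimum in ERRγ libraries only.

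On the list of mitochondrial carriers, import and biogenesis 2 of 36 genes had a row, and on that of the mitochondrial genome 4 of 15. Hspd1-201, for the chaperonin of the matrix, had levels of 114 and 125 RPKM in control cells against 95.3 and 96.7 RPKM after ERRγ (log2 fold change −0.32 ± 0.09, SE, edgeR, adjusted p = 0.0601). Vdac2-209, for a channel of the outer membrane, had 199 reads in control replicate 1 and none in the other libraries. The 4 rows encoded by the mitochondrial genome had log2 fold changes between −0.45 for mt-Nd4-201 and −0.22 for mt-Cytb-201, and none passed on total reads (edgeR). On unique reads, where 60.3% of 121 rows passed, mt-Nd4-201 did (log2 fold change −0.45, edgeR, adjusted p = 0.0399). Whether these differ from the nuclear rows was not tested.

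The start of each member gene was searched for short motifs, chosen from textbook knowledge after the data were seen, since each of the 5 genes had a row that was higher. RefSeq promoters on GRCm38.p6, 300 bases each, were read on both strands, and a match is only a run of letters. The oestrogen-related receptor element TNAAGGTCA was found in none of the 5, and in 1.28% of 32851 promoters. Its half-site AGGTCA, which lies within it, was found in none of the 5 and in 16.3% of all. CCGGAAG, the core read by ETS factors such as GABPA, was found at Atp5h and Idh3b and in 8.86% of all promoters. GCATGCGC, a core of NRF1 sites, was found at Ndufa6 and in 2.71%. Both factors are known activators of nuclear mitochondrial genes. At Atp5h and Ndufa6 the match began 38 and 83 bases upstream of the gene's start. At Idh3b it began 5 bases upstream and, with 7 bases, ran over the start. The matches are shown in capitals in 30 bases on the gene's strand, from chr11:115419940-115419969, chr2:130284439-130284468 and chr15:82354356-82354385, with CCGGAAG lying on the opposite strand.
Atp5h: ccaaggagagaaCTTCCGGcaactctcttc
Idh3b: cgaccgcgctcgCTTCCGGcgtcacttccc
Ndufa6: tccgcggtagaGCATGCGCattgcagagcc
The listed rows of these genes begin inside the gene, so the windows bear on the genes and not on the listed transcripts.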

How the data were processed

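RNA of 4 NIT-1 libraries was sequenced as paired reads of 151 bases, per the labels' protocols, and groups were taken from the sample titles. The authors deposited 1 table per library with RPKM values, counts of unique gene reads and counts of total gene reads, per the file headers. The submitters' processing notes name the build mm8, of which no coordinate was used; for aligner, counter and annotation the sources used here give no name. Of 409 rows, 3 without a gene ID (at most 0.0332% of listed reads) were left out. Library sizes were recovered as the value that makes row lengths equal transcript lengths of GENCODE M21; 397 of 406 lengths matched 1 transcript of the row's gene. The test was edgeR 4.0.16 (R 4.3.3) on total read counts with these library sizes, without TMM, with filterByExpr and Benjamini-Hochberg adjustment over all rows. It was repeated with rows of a gene added and on unique reads. DESeq2 1.42.0 and limma 3.58.1 were alternatives. SE is the absolute log2 change divided by the root of F. All member rows are named, whatever their values; of the energy gene lists every listed row is named. Members and lists were chosen with earlier results of these data known.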

Additional observations from a re-analysis of the deposited data

How the results depend on the processing

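No alternative turned the direction of a member row or gene, in 85 recomputed values of the 6 rows. The only calls were those of the DESeq2 Wald test on 4 rows. With both the filter and unique reads no member row gave a value, and with a mean count of at least 50 only the Hadhb and Ndufs6 rows did. How many rows of the whole table passed depended strongly on the choices. On total reads 25 of 375 rows passed (4 higher, 21 lower), against 1 with TMM, 3 with column totals (2 higher, 1 lower), 7 with DESeq2 size factors (2 higher, 5 lower), 241 in the DESeq2 Wald test (96 higher, 145 lower), 1 without a filter, 42 with a mean count of at least 50, and between 1 and 2 without 1 library. With rows of a gene added 36 genes passed (6 higher, 30 lower), against 5 with TMM (2 higher, 3 lower), 12 with column totals (6 higher, 6 lower), 7 with DESeq2 size factors (2 higher, 5 lower), 217 in DESeq2, 5 without a filter, and between 2 without control replicate 2 or either ERRγ library and 17 without control replicate 1. On unique reads 73 of 121 rows passed (11 higher, 62 lower), against 41 with TMM (29 higher, 12 lower), 45 with column totals (28 higher, 17 lower), 40 with DESeq2 size factors (28 higher, 12 lower), 23 without a filter, and between 10 without ERRγ replicate 2 and 98 without control replicate 2. The causes were not tested. With 1 library left out, the lone one is assumed to vary like the other group. Deviations of the libraries numbered 1 from their group means had a correlation of −0.08 over 375 rows. With 2 libraries per group this value cannot show whether same-numbered libraries were prepared together. In the fit with the replicate block 1 row and 4 genes passed, 71 rows on unique reads, and no member. At these depths 3 reads set the lower limit of a row, so differences among the rows at 0 in a control could not be measured.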

Other observations

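Hadhb stood apart from other genes with several rows in how unevenly its reads were divided between replicates. Of 30 genes with 2 or more rows, 24 had at least 50 reads in each library. In these the largest difference in a row's share of its gene's reads had a median of 4.66 percentage points between the ERRγ libraries and 5.07 points between the controls. Hadhb had the largest difference between the ERRγ libraries, 72.2 points, followed by Matr3 with 33.6 points, and was the only gene over 50 points there.

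The rows most like each member row, by Euclidean distance of log2(RPKM + 1) over the 4 libraries, came from genes of many kinds. Idh3b-204 lay closest to Igfbp4-205, from the gene for an insulin-like growth factor binding protein, at a distance of 0.0704, with no read in the controls and 1.60 and 5.50 RPKM after ERRγ. The nearest row to Hadhb-202 was Vta1-202 (0 and 0, then 1.40 and 4.95 RPKM), to Ndufa6-203 Hnrnpl-213 (0.720 and 1.47, then 5.53 and 4.58 RPKM), to Ndufs6-201 Dap-204 (0 and 4.06, then 11.4 and 13.1 RPKM) and to Hadhb-203 Ptp4a2-206 (6.15 and 5.76, then 2.10 and 0 RPKM). Among all named rows, 22 had no read in either control and 37 had none in either ERRγ library.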
